A study of Homo sapiens with 3 samples.

Results

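PPP1R15A, ASNS, PHGDH, SLC7A1 and STC2 are 5 known targets of the transcription factor ATF4 in the integrated stress response. They were selected on their measured levels in these same 3 libraries and found by gene symbol in a deposited table of 5932 genes in its glucose block and 5928 in its glutamine block, so their values are a description and carry no test. Together they had 28 listed regions in each block. The libraries came from 95D, an established wild-type human lung cancer cell line. There was 1 library each from cells held 48 h in glucose-free medium, 48 h in glutamine-free medium and 48 h in control conditions. The deprived cultures were seeded 24 h before in complete medium and then had 10% dialyzed serum, and what the control conditions were is not detailed in the labels. Per the labels' protocols, all 3 carry RNA pulled from lysates by DAMER, a long non-coding RNA made in vitro and biotinylated, whereas their titles name plain RNA sequencing. With 1 library per culture, no difference has a replicate check.

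ATF4 is the main effector of the integrated stress response. Kinases that sense missing amino acids, unfolded proteins or other stress phosphorylate the translation factor eIF2, which lowers protein synthesis in general and raises translation of ATF4 mRNA. ATF4 then pairs with C/EBP proteins on response elements near its targets, among them enzymes and transporters that restore amino acids. PPP1R15A, also called GADD34, brings a phosphatase to eIF2 and so ends the response. ASNS makes asparagine from aspartate and glutamine, and PHGDH starts serine synthesis from a glycolytic intermediate. SLC7A1 imports arginine, lysine and ornithine, and STC2 is a secreted glycoprotein induced by stress in the endoplasmic reticulum.

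ATF4 binds a short response element, so the start regions of the 5 genes were searched for its letters, and the stretches that hold them are shown. Each window of RefSeq (build GRCh38.p14) ran from 250 bases before to 50 bases after a gene's start, and the letters TGATGNAA were sought on both strands. A match was found for 2 of the 5 genes, ASNS and SLC7A1. Of 35116 windows of all genes, several for some genes, 3.62% held the letters. Of 5414 windows of listed genes 2.25% did. Among the other genes of the stress response lists used further on, 18 of 59 had a match, including ATF3, CHAC1 and SLC3A2. These counts are of genes and the percentages of windows, so they are unlike measures. The ASNS stretch lies at chr7:97872409-97872658 on the minus strand and ends at the last base before the start, with the match at −68 to −61. The SLC7A1 stretch lies at chr13:29595663-29595692 on the minus strand and reaches past the start, with the match at bases 8 to 15 from the start. Capitals mark the match, and both read TGATGAAA.
ASNS: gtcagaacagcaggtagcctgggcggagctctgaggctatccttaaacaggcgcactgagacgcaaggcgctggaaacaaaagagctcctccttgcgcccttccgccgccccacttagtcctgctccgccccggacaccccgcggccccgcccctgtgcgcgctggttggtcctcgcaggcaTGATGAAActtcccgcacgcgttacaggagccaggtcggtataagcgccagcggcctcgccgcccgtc
SLC7A1: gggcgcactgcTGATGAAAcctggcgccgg
The windows of PPP1R15A, STC2 and PHGDH, and a second window of ASNS, did not hold these letters, which says nothing about elements elsewhere.

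In the annotation (GENCODE release 29, GRCh38), all 5 are protein-coding genes. PPP1R15A lies at chr19:48872392-48876057 on the plus strand and ASNS at chr7:97852118-97872542 on the minus strand. PHGDH lies at chr1:119648411-119744226 on the plus strand, SLC7A1 at chr13:29509410-29595688 and STC2 at chr5:173314713-173329503, both on the minus strand. The table gives no coordinates for its regions, so none could be placed on an exon, intron or UTR. PPP1R15A had 3 listed regions, where its longest coding transcript has 3 exons. ASNS had 6 regions for 14 exons, PHGDH 7 for 15, SLC7A1 7 for 13, and STC2 5 for 4. All 6 ASNS regions were listed a second time, with the same values, under ENSG00000284707, a non-coding transcript on the same strand at chr7:97851688-97972985 that spans the gene, so reads of ASNS and of this transcript cannot be told apart.

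The deposited unit is RPM, which scales fragments to the size of the library, with an offset of 0.5 fragment added to each region. The RPM worth of 1 fragment gave library totals of 18775814 fragments in the glucose-deficient, 18301581 in the glutamine-deficient and 3781862 in the control library. ATF4 and its pseudogenes took 99.93% of fragments in the glucose-deficient, 99.92% in the glutamine-deficient and 0.0253% in the control library. Outside this family were 12936 fragments without glucose, 14450 without glutamine and 3780904 in control. Listed regions held 8.69% of them without glucose, 1.10% without glutamine and 21.7% in control. A count of 0 allows, by the limit of 3 fragments, 0.0232% of the fragments outside the family without glucose and 0.0208% without glutamine. Of epithelial markers 1 of 6 was listed (KRT8, 6.48 RPM in control), and of leukocyte markers 1 of 4 (CSF1R, 10.3 RPM in control). Of mesenchymal markers 2 of 4 were listed, VIM and ZEB1, with control values from 5.16 to 77.7 RPM. No endothelial, fibroblast or erythroid marker was listed, and the listed markers had 0 fragments in both deprived libraries. Fewer cells and less RNA per cell cannot be told apart in such libraries. Intervals below are 95% intervals and cover counting error only.

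On the RPM scale, all 5 genes were at least 2-fold lower in each deprived library than in the control library, as were 99.9% of all tested genes in either comparison, so this count says nothing particular about them. None was at least 2-fold higher, as 0.118% of tested genes were without glucose and 0.0675% without glutamine. A gene counts as tested from 1 RPM in either library, which means compared, with no p-value, on log2(RPM + 1), a scale on which low genes differ less than their counts do. The median log2 ratio of the 5 was −7.24 without glucose and −7.30 without glutamine, both over control, against −3.92 without glucose and −3.93 without glutamine over all tested genes. Since most deprived values are the offset alone, such ratios follow the control level.

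PPP1R15A, the subunit that ends the response, stood at 0.0799 RPM in the glucose-deficient library, 0.0820 RPM in the glutamine-deficient library and 296 RPM in the control library. Both deprived values are the offset alone, 0 fragments against 1116.5 in control. Against the limit of 3 fragments that is 1848-fold lower without glucose and 1801-fold lower without glutamine. The counting intervals begin at 1501-fold lower without glucose and 1463-fold lower without glutamine. ASNS, of asparagine synthesis, stood at 0.479 RPM without glucose, 0.164 RPM without glutamine and 67.4 RPM in the control library. Its 6 fragments in the glucose-deficient library, against 252 in control, made it the member with the most deprived fragments, 209-fold lower in RPM without the offset (94.5 to 574). The log2 ratio of ASNS, −5.53 with library totals, became 2.78 with the ATF4 family left out of the totals, 1.89 under TMM (the trimmed-mean scaling of edgeR) and 3.32 under median-of-ratios scaling, so its direction depends on the scaling. The log2 ratios of the other 4 genes stayed negative under these scalings. PPP1R15A and PHGDH had 0 fragments without glucose, which no scaling can raise, so their sign could not change. SLC7A1 (−0.88) and STC2 (−0.65) came nearest to 0 under median-of-ratios scaling, which rests on 23 genes with fragments in all 3 libraries. In the glutamine-deficient library ASNS had 0 fragments.

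PHGDH, of serine synthesis, stood at 0.186 RPM without glucose, 0.191 RPM without glutamine and 93.6 RPM in the control library. It had 0 fragments in both deprived libraries, against 350.5 in control. SLC7A1, the cationic amino acid importer, stood at 0.240 RPM without glucose (1 fragment), 0.191 RPM without glutamine (0 fragments) and 209 RPM in control (788 fragments). STC2, the secreted glycoprotein, stood at 0.186 RPM without glucose (1 fragment), 0.137 RPM without glutamine (0 fragments) and 178 RPM in control (671 fragments). For every one of the 5 the control library was the high one and the deprived libraries did not reach 1 RPM.

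**Figure D1:**
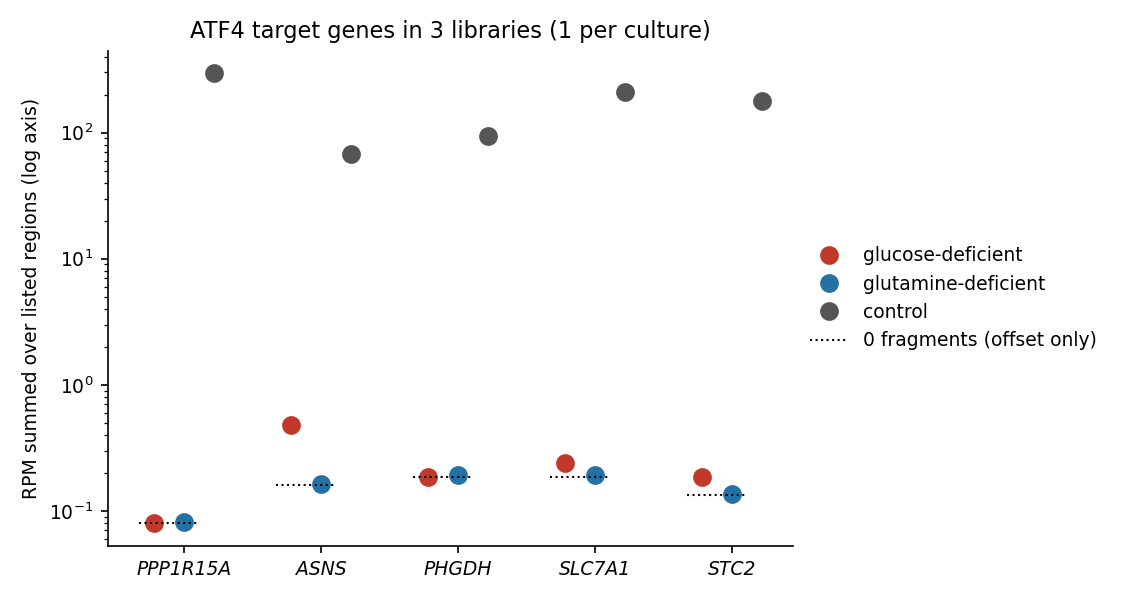
RPM of each gene summed over its listed regions (log axis) in the glucose-deficient, glutamine-deficient and control libraries, 1 library each. Dotted lines mark the value of 0 fragments, which is the offset alone, drawn at the depth of the glucose-deficient library. In the glucose-deficient library ASNS (0.479 RPM), SLC7A1 and STC2 sit above that line, and all deprived values sit far below the control values of 67.4 to 296 RPM.

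Region by region, control fragments were spread unevenly, and a share is given here per gene since regions have no stated length. In PPP1R15A 1 region held 81.4% of the gene's control fragments (909), and the other 2 held 113.5 and 94. In SLC7A1 the first region held 53.0% (418), while the other 6 held between 26 and 129.5. STC2 had 2 regions of similar count, 242 and 228, with 100.5, 51 and 49.5 in the others. ASNS and PHGDH were more even, with at most 22.6% of the gene's control fragments in a region of ASNS and 24.0% in a region of PHGDH. The same control values stood in both blocks for all 28 regions.

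The deprived fragments did not follow that order. In the glucose-deficient library the 6 ASNS fragments lay in 3 of 6 regions, 3 in a region with 46.5 control fragments, 2 in a region with 37.5 and 1 in a region with 26, while the regions with 57 and 54.5 control fragments had 0. Fragments in 3 or more listed regions were found for 0.321% of the tested genes outside the ATF4 family in that library, and for 0.0169% without glutamine. Genes with fewer than 3 listed regions cannot reach this, so these shares are not those of genes with as many regions as ASNS. Whether a fragment that spans several regions was counted in each is stated in no label or header, so the 6 may stand for fewer RNA molecules. The single SLC7A1 fragment lay in a region with 33.5 control fragments, and the single STC2 fragment in a region with 228. None of the 28 regions had a fragment in the glutamine-deficient library.

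**Figure D2:**
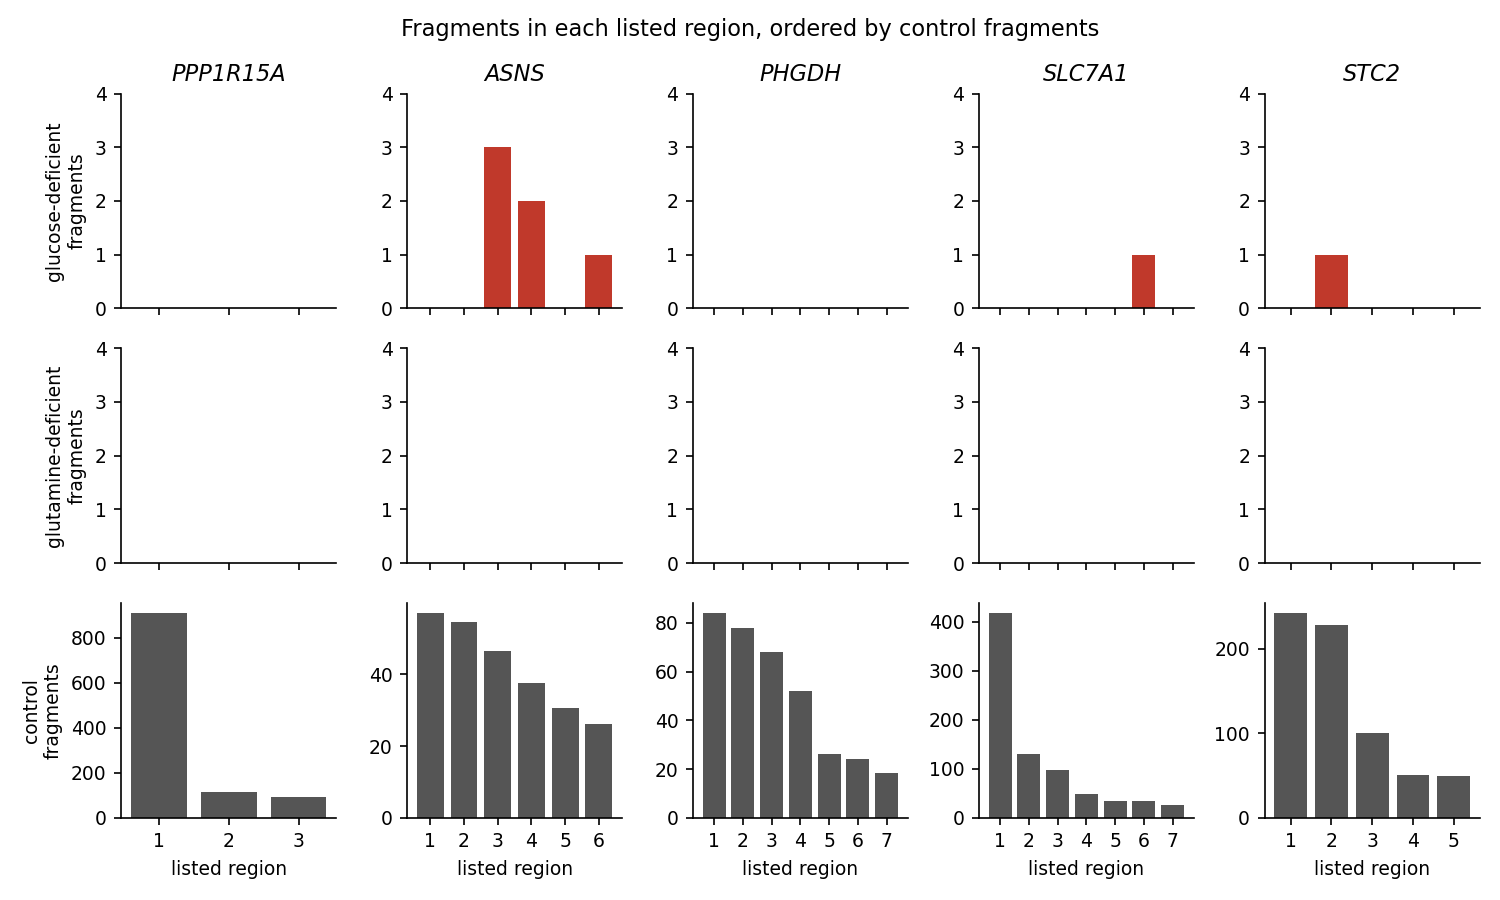
Fragments in each listed region of the 5 genes, with regions ordered by control fragments and a row each for the glucose-deficient, glutamine-deficient and control libraries. Vertical axes start at 0 and differ between the control panels. The glucose-deficient fragments lie in 3 ASNS regions, 1 SLC7A1 region and 1 STC2 region, and the glutamine-deficient row is empty.

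Taken as a share of the fragments outside ATF4 and its pseudogenes, ASNS had a ratio above 1 in the glucose-deficient library and the other 4 genes had ratios below 1. ASNS held 0.0464% of these fragments in the glucose-deficient library (0.0170% to 0.101%) against 0.00667% in control, so the ratio was 6.96 (2.53 to 15.4). At the control share 0.862 fragments would have been counted, against the 6 found. Since ASNS was selected on such values, this ratio describes the library and tests nothing. An interval wholly above 2-fold higher was found for 0.118% of 5927 tested genes, 7 in number. Of these 7, 1 is ASNS and 1 the transcript that shares its regions. The other 5 were LINC02432, LINC00343, NOL4L and MBTPS1, which have only 1 listed region each, and RAD51B, with fragments in 1 of its 2 regions. In the glutamine-deficient library ASNS had 0 fragments where the control share would give 0.963, and the interval of the ratio reached 3.86, so a difference from control was not detectable at this depth. There 0.0506% of tested genes had an interval wholly above 2-fold higher, and no member did.

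PPP1R15A held 0 of the fragments outside the family in both deprived libraries and 0.0295% in the control library. At the control share 3.82 fragments would have been counted without glucose and 4.27 without glutamine. Against the limit of 3 fragments its share was lower by at least 1.27-fold without glucose and by at least 1.42-fold without glutamine. The counting interval of the ratio reached up to 0.967 without glucose and 0.866 without glutamine. Among listed regions outside the family alone, the control share would give 1.53 fragments without glucose and 0.217 without glutamine. Both lie below the limit of 3, so on that scale the 0 fragments show no decrease. PPP1R15A was selected on these libraries, so these values are descriptions of 1 library each.

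SLC7A1 held 0.00773% in the glucose-deficient library and 0.0208% in control, 1 fragment where 2.70 would match the control share, a ratio of 0.371 (0.00938 to 2.07). STC2 likewise had 1 fragment where 2.30 would match, a ratio of 0.436 (0.0110 to 2.44). PHGDH had 0 where 1.20 would match, with a ratio of up to 3.09. In the glutamine-deficient library these genes had 0 fragments, where 3.01 would match for SLC7A1, 2.56 for STC2 and 1.34 for PHGDH. There the interval of the ratio reached 1.23 for SLC7A1, 1.44 for STC2 and 2.76 for PHGDH. By these intervals a difference in share from control was not detectable at this depth for SLC7A1, STC2 and PHGDH in either library. By the limit of 3 fragments used for PPP1R15A, SLC7A1 without glutamine lay at the edge, 1.00-fold lower. No member had its whole interval beyond 2-fold lower, as 0.202% of tested genes had without glucose and 0.422% without glutamine. By the point ratio with 0.5 fragment added, 2 members were at least 2-fold lower and 1 higher in the glucose-deficient library, beside 5.97% of tested genes lower and 62.4% higher. In the glutamine-deficient library 4 were lower and 0 higher by that rule, beside 10.1% lower and 55.5% higher. The large shares of higher genes come from the added 0.5 fragment, since 91.0% of the tested genes had 0 fragments without glucose and 99.3% without glutamine.

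Summed over the 5 genes, 8 fragments were counted without glucose where the control share would give 10.9, a ratio of 0.736 (0.317 to 1.45). ASNS supplied 6 of the 8. The other 4 genes had 2 fragments where 10.0 would match, a split made after the counts were seen, from which nothing is read. In the glutamine-deficient library the 5 had 0 fragments where 12.1 would match, and the counting interval of the ratio reached up to 0.304.

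These ratios depend on which reads stand for the whole. Listed regions outside the family kept 1.37 fragments per 1000 control fragments in the glucose-deficient library (1.29 to 1.45) and 0.194 in the glutamine-deficient library (0.166 to 0.228). On that scale the 5 genes would have 4.35 fragments in the glucose-deficient library at the control share, against the 8 found, and 0.618 in the glutamine-deficient library, against 0. For the 0 fragments of the glutamine-deficient library, the interval of the ratio reached 0.304 among all reads outside the family and 5.97 among listed regions alone. ASNS kept 23.8 fragments per 1000 control fragments in the glucose-deficient library (8.74 to 51.8), and its ratio among listed regions was 17.4 (6.33 to 38.4). SLC7A1 kept 1.27 per 1000 (0.0321 to 7.07) and STC2 1.49 (0.0377 to 8.30), 1 fragment each, so neither can be placed above or below the 1.37 of listed regions as a whole.

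**Figure D3:**
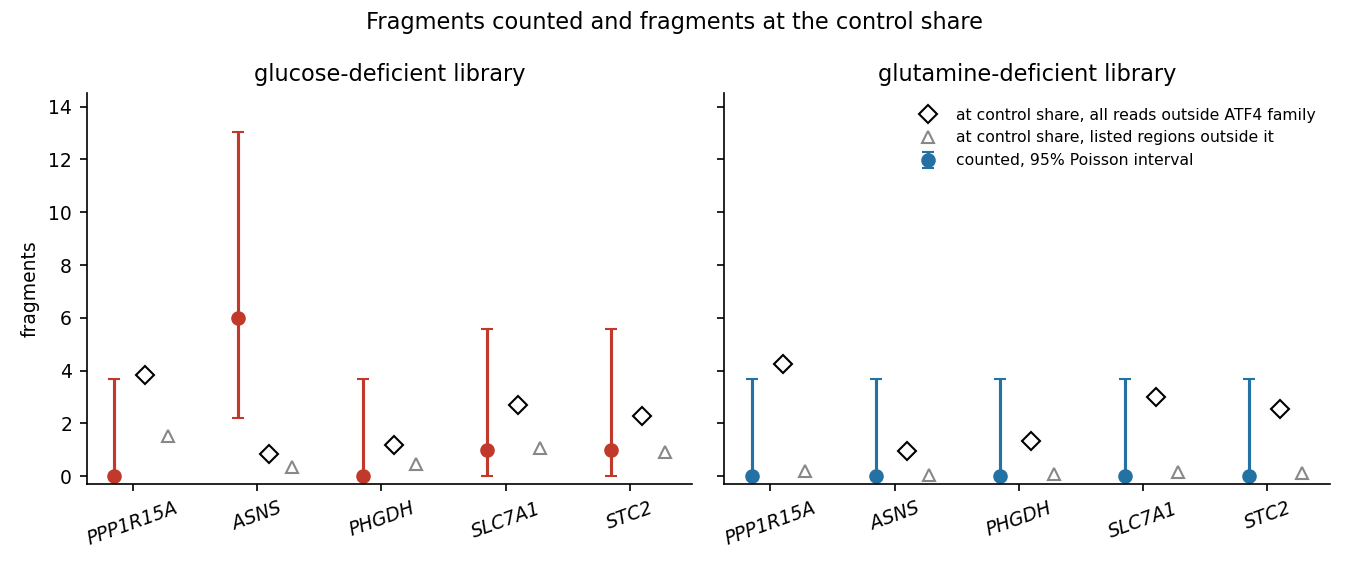
Fragments counted for each gene, with 95% Poisson intervals, in the glucose-deficient and glutamine-deficient libraries. Diamonds show the fragments that the control share of all reads outside the ATF4 family would give, and triangles those that the control share of listed regions would give. ASNS in the glucose-deficient library (6 fragments) lies above both marks. PPP1R15A has 0 fragments, beside diamonds of 3.82 without glucose and 4.27 without glutamine and triangles of 1.53 and 0.217.

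Of 5927 tested genes outside the ATF4 family, 8.96% had at least 1 fragment without glucose, and 0.709% of 5924 had one without glutamine. Among the members 3 of 5 had one without glucose and 0 of 5 without glutamine. By control RPM the members ranked from 63 (PPP1R15A) to 642 (ASNS) of 5932 genes, and they were selected on these values. The 3 of 5 are therefore not read as a result about the members. At least 6 fragments in the glucose-deficient library, the count of ASNS, were found for 0.456% of tested genes, and as many without glutamine for 0.152%.

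**Figure D4:**
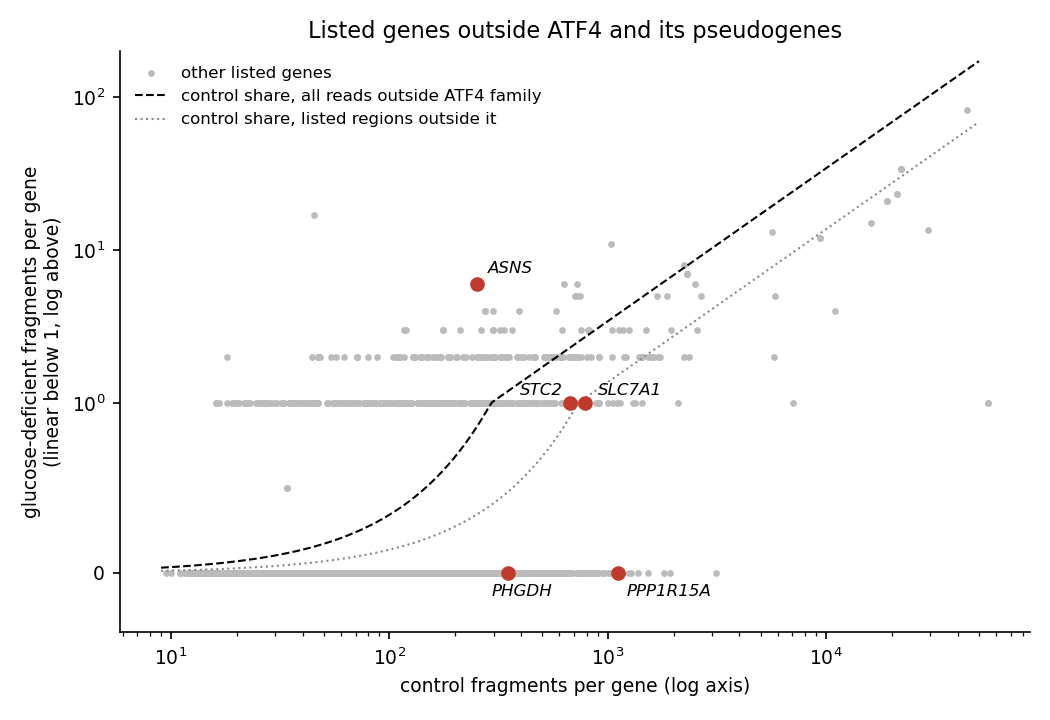
Glucose-deficient fragments (linear below 1, log above) against control fragments (log axis) for each listed gene with at least 9 control fragments outside ATF4, its pseudogenes and RNF157. Lines show equal shares of all reads outside the ATF4 family (dashed) and of listed regions (dotted). ASNS, with 6 fragments against 252, lies above both lines, STC2 and SLC7A1 lie near the dotted line, and PHGDH and PPP1R15A lie at 0 with many other genes.

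Between the deprived libraries, ASNS had 6 fragments without glucose and 0 without glutamine. As a share outside the ATF4 family that is 2.23-fold higher when the 6 are taken as exact and the 0 as the limit of 3 fragments. The counting interval of the ratio, which also covers error in the 6, began at 1.32. The 5 genes summed had 8 against 0 fragments, with 6 of the 8 from ASNS. By the same limit their share was 2.98-fold higher without glucose, with an interval from 1.91. Listed regions as a whole also held more fragments in the glucose-deficient library, 1123.5 against 158.5, and most of that excess lay outside mitochondrial genes (1034 against 59). They held 8.69% of the fragments outside the family without glucose and 1.10% without glutamine. The members were selected on these values, and their difference cannot be told from that of listed regions as a whole. SLC7A1 and STC2, with 1 against 0 fragments, and PPP1R15A and PHGDH, with 0 in both, could not be ordered.

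The other genes of the stress response were read from lists of its parts, 80 genes without the 5 members, of which 52 were tested. All 52 were at least 2-fold lower on the RPM scale in each deprived library, as were 99.9% of all tested genes, so this count says nothing particular about them. As a share outside the ATF4 family, 0 of the 52 had an interval wholly beyond 2-fold in either direction in either comparison. In the glucose-deficient library 4 of the 52 had a fragment, beside 8.96% of all tested genes, so the count is not read as a result about these lists. They had 5 fragments in all, where the control share would give 41.9 among all reads outside the family and 16.8 among listed regions. In the glutamine-deficient library 0 of the 52 had a fragment, beside 0.709% of all tested genes, where these scales would give 46.8 and 2.38 fragments. The 52 genes kept 0.408 fragments per 1000 control fragments in the glucose-deficient library.

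The counts of 0 that follow stand beside 91.0% of all tested genes at 0 fragments without glucose and 99.3% without glutamine, and are given as values. Upstream, 6 of 14 genes for stress kinases and eIF2 were tested. EIF2AK2, the kinase PKR, and EIF2AK1, the kinase HRI, had 1 fragment each in the glucose-deficient library, against 100 for EIF2AK2 and 70 for EIF2AK1 in control. EIF2S3, a subunit of eIF2, had 0 in both deprived libraries, against 415.5 in control. Beside PPP1R15A, 4 of 5 genes of the eIF2 phosphatase list were tested and had 0 fragments in both deprived libraries, among them PPP1R15B, the constitutive partner, with 208.5 in control. Of transcription factors that act with or after ATF4, 6 of 9 were tested and had 0 fragments in both deprived libraries. ATF3 had 451.5 control fragments, NUPR1 297.5 and CEBPG 132.

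Beside ASNS and PHGDH, 10 of 12 amino acid synthesis genes were tested and had 0 fragments in both deprived libraries. CTH, of cysteine synthesis, had 291.5 control fragments, and PSAT1, the step after PHGDH, had 245, close to the 252 of ASNS. Beside SLC7A1, 6 of 10 transporter genes were tested and also had 0. SLC38A1, a glutamine transporter, had 1045 control fragments, where 3.58 would match the control share without glucose and 3.99 without glutamine. Of 13 other targets beside STC2, 7 were tested, and EIF4EBP1, an inhibitor of cap-dependent translation, had 1 fragment in the glucose-deficient library against 252 in control. All 13 aminoacyl-tRNA synthetases were tested, and AARS1, for alanine, was the one with fragments, 2 in the glucose-deficient library against 524 in control. No other stanniocalcin or member of the cationic transporter family on the lists (0 of 4) was listed. EIF4EBP1, with the same 252 control fragments as ASNS, had a share ratio of 1.16 (0.0292 to 6.52), so the intervals of both genes overlap.

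By the distance of log2(RPM + 1) over the 3 libraries, the 2 genes nearest each member were found. ENSG00000284707, which repeats the regions and values of ASNS, was left out. SLC7A1 was nearest to POLR2A (distance 0.0063) and CCND2 (0.0483), and PHGDH to RAD23B (0.0121) and ZBED6 (0.0368). STC2 was nearest to RPL11 (0.0485) and ZNF703 (0.0585), and PPP1R15A to ENSG00000278996 (0.127) and RPL32P18 (0.132). With that transcript left out, ASNS stood farthest from its neighbours, MACF1 (0.179) and MTR (0.215). These had 2 fragments each in the glucose-deficient library against 250.5 and 273.5 in control.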

How the data were processed

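RNA from 3 cultures of 95D cells was sequenced, 1 library each. The submitters' processing notes name HISAT2 2.0.5 and hg38. Region calling, the choice of regions, the annotation and the use of strand: not given in the sources used here. RPM per listed region is what the authors deposited, per the file headers. The glutamine-deficient sample's label names the glucose column, so its own file, equal to the glutamine column in 14333 of 14333 values, set the mapping. A fragment was worth 0.0533 RPM without glucose, 0.0546 without glutamine and 0.264 in control, with 0.5 fragment added per region. Values were rounded to the nearest 0.5 fragment (largest distance below 1000 RPM, 0.0143 fragment). Then 99.96% of glucose-deficient, 99.98% of glutamine-deficient and 63.3% of control values were whole, the others lying 0.5 fragment between. A count test was not run, since 1 library per group leaves no residual degrees of freedom.

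A gene's value is the sum of its rows. For totals of listed regions, rows with equal values were counted once where their genes overlap, where they lie within 10 rows and a gene is not annotated, or where they hold 200 or more control fragments. Of the rows, 691 in each block name no gene. Ratios are of log2(RPM + 1), or of shares outside ATF4, its pseudogenes and the RNF157 entry that repeats an ATF4P3 region. Calls are a 2-fold ratio from 1 RPM in either library. Intervals of ratios are exact conditional binomial, those of counts exact Poisson, at 95%. PCR duplicates are not independent molecules. Named genes are the 5 members, the 2 nearest genes of each with ENSG00000284707 left out, and genes of the lists. Of each list, up to 3 by control RPM and up to 3 by deprived fragments are named. LINC02432, LINC00343, NOL4L, RAD51B and MBTPS1, and the named motif matches, were chosen after their values were seen. The members and lists were chosen with earlier results of these data known. Scaling used edgeR 4.0.16 (TMM) and DESeq2 1.42.0 (median of ratios) in R 4.3.3, each total set to that of the control. The rest used Python 3.11.15 with scipy 1.17.1, numpy 2.4.6, pandas 2.3.3 and matplotlib 3.10.9. The recovery of fragments, the intervals of ratios and the calls by whole interval were tested on simulated whole counts. A high share of changed genes called was required at full depth only. The merging of regions and the motif search were not simulated.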

Additional observations from a re-analysis of the deposited data

How the results depend on the processing

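No paired analysis was possible because each group has 1 library, and no replicate could be left out. On the RPM scale the counts of lower genes stayed within 1.5 times of 5924 under every alternative run. Of the tested genes outside the ATF4 family, 91% had 0 fragments without glucose and 99.3% without glutamine, which no scaling can raise. Most of the lower calls were therefore bound to stay under any scaling. The counts of higher genes moved. From 7 without glucose and 4 without glutamine they became 146 and 20 with TMM scaling, 317 and 27 with median-of-ratios scaling, and 251 and 23 with the ATF4 family out of the totals. In the glucose-deficient comparison, 4 were higher over regions whose control value was equal in the blocks. Of the 5 members lower on the RPM scale in the glucose-deficient comparison, 2 were lower with median-of-ratios scaling. These were PPP1R15A and PHGDH, whose 0 fragments no scaling can raise. The log2 ratio of ASNS turned to 1.89 with TMM, 3.32 with median-of-ratios scaling and 2.78 with the ATF4 family out of the totals.

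On the share scale the point calls rest on the added 0.5 fragment. In the glucose-deficient comparison the 3697 higher and 354 lower genes became 2408 and 924 with TMM scaling and 266 and 1325 with the control thinned to the deprived depth. Lower genes alone were 44 among listed regions, 165 with median-of-ratios scaling and 92 with 1 fragment added. By whole counting interval, 7 were higher and 12 lower. In the glutamine-deficient comparison the 3288 higher and 601 lower genes became 5881 and 11 among listed regions and 14 and 1657 with the control thinned. Lower genes there were 206 with median-of-ratios scaling and 209 with 1 fragment added, and 3 were higher and 25 lower by whole interval. Of the members, the 2 lower in the glucose-deficient comparison became 4 with TMM, 1 with median-of-ratios scaling, 1 with 1 fragment added, 1 among listed regions and 0 by whole interval. The 4 lower in the glutamine-deficient comparison became 0 by whole interval and 0 among listed regions, where 5 were higher. That last count comes from the added 0.5 fragment on 0 counted fragments. So do the log2 share ratios that turned positive there without glutamine, ASNS 3.35, PHGDH 2.87, PPP1R15A 1.20, SLC7A1 1.71 and STC2 1.94, and PHGDH 0.059 without glucose. SLC7A1 (0.48) and STC2 (0.71) also turned positive there without glucose, on 1 counted fragment each. Without the added 0.5 fragment their ratios there were 0.928 for SLC7A1, below 1, and 1.09 for STC2. The log2 share ratio of ASNS without glutamine was −0.949 in the main run, on 0 counted fragments. On that log2 scale it turned to 0.042 with median-of-ratios scaling and 0.048 with 1 fragment added. Under each alternative run on the share scale, whole interval included, 1 member passed 2-fold higher without glucose, and it was ASNS. These runs reuse the same counted fragments of 1 library, on which ASNS was selected, so they give it no independent support. Depth outside the ATF4 family limits the other members, for which the control share gives fewer than 5 fragments each.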
